A study of Mus musculus with 24 samples.

Results

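Sox4, Sox11 and Sox12, the SoxC genes, and Sox5, Sox6 and Sox13, the SoxD genes, were followed through bulk RNA sequencing of the developing mouse archicortex. They were chosen by family, with earlier results of these data known. All 6 were found by symbol among the 51912 genes of the table, and all 6 passed the filter on low values, with at least 623 reads in every library. The archicortex (ARK) is the medial part of the dorsal forebrain from which the hippocampus and the dentate gyrus arise. Each of 24 libraries held RNA from ARK of mouse embryos of the mixed C57BL/6J;MF1 strain, in 6 groups of 4. Sox1Cre mutants had the genotype Sox9fl/fl;Sox1Cre and their controls Sox9+/+;Sox1Cre, at E12.5 and at E13.5 (days of embryonic development). NestinCre mutants (Sox9fl/fl;NestinCre) and their controls (Sox9+/+;NestinCre) were collected at E13.5. Controls therefore carried the Cre of their own line and no floxed Sox9.

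The Cre lines differ in where and when they act. In the study's methods Sox1Cre is a targeted allele active in the whole neural plate, so one copy of Sox1 is changed in mutants and controls alike. Nestin-Cre is a transgene that acts later, spreads from ventral to dorsal forebrain and leaves much of the cortical hem, a signalling region at the edge of the ARK, unrecombined. The libraries held between 16163560 and 49445219 reads assigned to genes (median 23016925). The labels do not tie libraries to separate embryos or litters, so p-values measure the spread between these libraries.

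Sox proteins bind DNA through an HMG box, a domain that bends the double helix. SoxC proteins carry an activation domain and are known for switching on genes of newly formed neurons, and Sox4 and Sox11 are the members most studied in the brain. SoxD proteins lack such a domain, pair with one another through a coiled coil and change the output of other factors. In cartilage Sox5 and Sox6 work with SOX9 on collagen genes, in the cortex Sox5 marks deep-layer neurons and Sox6 marks dorsal progenitors and some interneurons, and in the spinal cord both restrain oligodendrocyte formation.

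The stretch of 40 codons of Sox11 with the closest summed match in the coding sequences of the other members lies in the HMG box. It is shown because it separates the families and because paralogs this alike could in principle share reads. Sequences are from the GENCODE M21 transcripts of GRCm38, 5′ to 3′ on the coding strand, which is the minus strand for all 6 genes. Capitals mark bases that differ from Sox11 within SoxC and from Sox6 within SoxD.
Sox11: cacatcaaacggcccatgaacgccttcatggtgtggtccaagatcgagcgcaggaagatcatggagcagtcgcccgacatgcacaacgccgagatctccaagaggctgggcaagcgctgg
Sox4: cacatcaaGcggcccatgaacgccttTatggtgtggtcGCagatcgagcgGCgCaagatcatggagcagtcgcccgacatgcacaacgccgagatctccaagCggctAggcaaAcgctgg
Sox12: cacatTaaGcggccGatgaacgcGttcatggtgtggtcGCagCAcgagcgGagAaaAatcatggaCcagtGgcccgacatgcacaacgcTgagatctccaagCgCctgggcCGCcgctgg
Sox6: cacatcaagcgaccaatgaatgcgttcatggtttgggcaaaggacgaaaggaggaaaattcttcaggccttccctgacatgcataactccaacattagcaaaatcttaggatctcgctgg
Sox5: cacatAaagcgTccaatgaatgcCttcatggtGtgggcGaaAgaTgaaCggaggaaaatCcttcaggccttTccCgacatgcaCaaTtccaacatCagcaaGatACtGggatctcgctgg
Sox13: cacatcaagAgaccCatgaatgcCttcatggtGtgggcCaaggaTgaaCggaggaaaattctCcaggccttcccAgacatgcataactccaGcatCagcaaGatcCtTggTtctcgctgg

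Sox4 differed from Sox11 at 10 of these 120 bases and Sox12 at 19, while Sox13 differed from Sox6 at 15 and Sox5 at 18. Identity was between 84.2% and 91.7% within a family and between 65.0% and 71.7% across families. The stretch lies in a single exon in each SoxC gene, at chr12:27342148-27342267 for Sox11, chr13:28952731-28952850 for Sox4 and chr2:152397465-152397584 for Sox12. In each SoxD gene it is split by an intron, between exons 15 and 16 of Sox6 (chr7:115486754-115489771), exons 13 and 14 of Sox5 (chr6:143835402-143841282) and exons 11 and 12 of Sox13 (chr1:133384663-133385574). The longest run of identical bases between transcripts of any pair of members was 48 bases, between Sox4 and Sox11.

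Among the annotated neighbours, exons of Sox4 overlap those of the long non-coding RNA Gm26735 on the other strand, which had a mean of 43.6 normalized counts, and exons of Sox5 overlap those of the antisense RNA Sox5os1, listed at 0. The strand setting of the counting is not given in the sources used here. The antisense gene Sox6os, which shares no exon with Sox6, had a mean of 4.76.

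Several libraries stood apart. Xist, the RNA of the inactive X chromosome of female cells, was between 3526 and 5934 normalized counts in 11 libraries and at most 6.41 in the other 13. It was high in all 4 E12.5 Sox1Cre controls, in 0 of the 4 E13.5 Sox1Cre controls, in 2 of 4 Sox1Cre mutants at each age, in 2 of 4 NestinCre mutants and in 1 of 4 NestinCre controls. Age and Xist level therefore cannot be told apart in the Sox1Cre controls, whereas they are balanced in the Sox1Cre mutants.

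Library A1, an E13.5 Sox1Cre mutant, had the highest value of its group for all 6 genes. It was also the lowest of its group in the summed level of 7 of 10 marker lists for other cell types, among them choroid plexus (7762 against 65079 to 88404), meninges (17572 against 28845 to 42412) and endothelium (4265 against 8267 to 11039). It was the highest in the pallial progenitor list, at 58628 against 42750 to 53580. Library A18, a NestinCre mutant, had the highest sum of the ventral telencephalon list of all 24 libraries, 697 against at most 117 in the others, and the lowest Sox4 of its group.

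SoxC transcripts were the more abundant family at these ages. Per kilobase of annotated exon, the mean normalized count over 24 libraries was 2629 for Sox11, 2141 for Sox4 and 1154 for Sox12. The SoxD genes followed at 298 for Sox6, 274 for Sox13 and 93.9 for Sox5. The order was the same per kilobase of the longest transcript, where Sox6 stood at 510, Sox13 at 320 and Sox5 at 186, so the gap between Sox6 and Sox13 depends on the length used. Sox11 ranked above 99.86% of all genes in the table by mean normalized count and Sox13 above 90.77%. These shares include 21449 genes with no read in any library, out of 51912.

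The genes differed in how much they varied between libraries. The highest library exceeded the lowest 2.88-fold for Sox5, 2.27-fold for Sox4, 1.80-fold for Sox6, 1.64-fold for Sox11, 1.5-fold for Sox13 and 1.26-fold for Sox12. The coefficient of variation over the 24 libraries was 26.6% for Sox4 and 26.3% for Sox5, and 7.05% for Sox12.

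**Figure D1:**
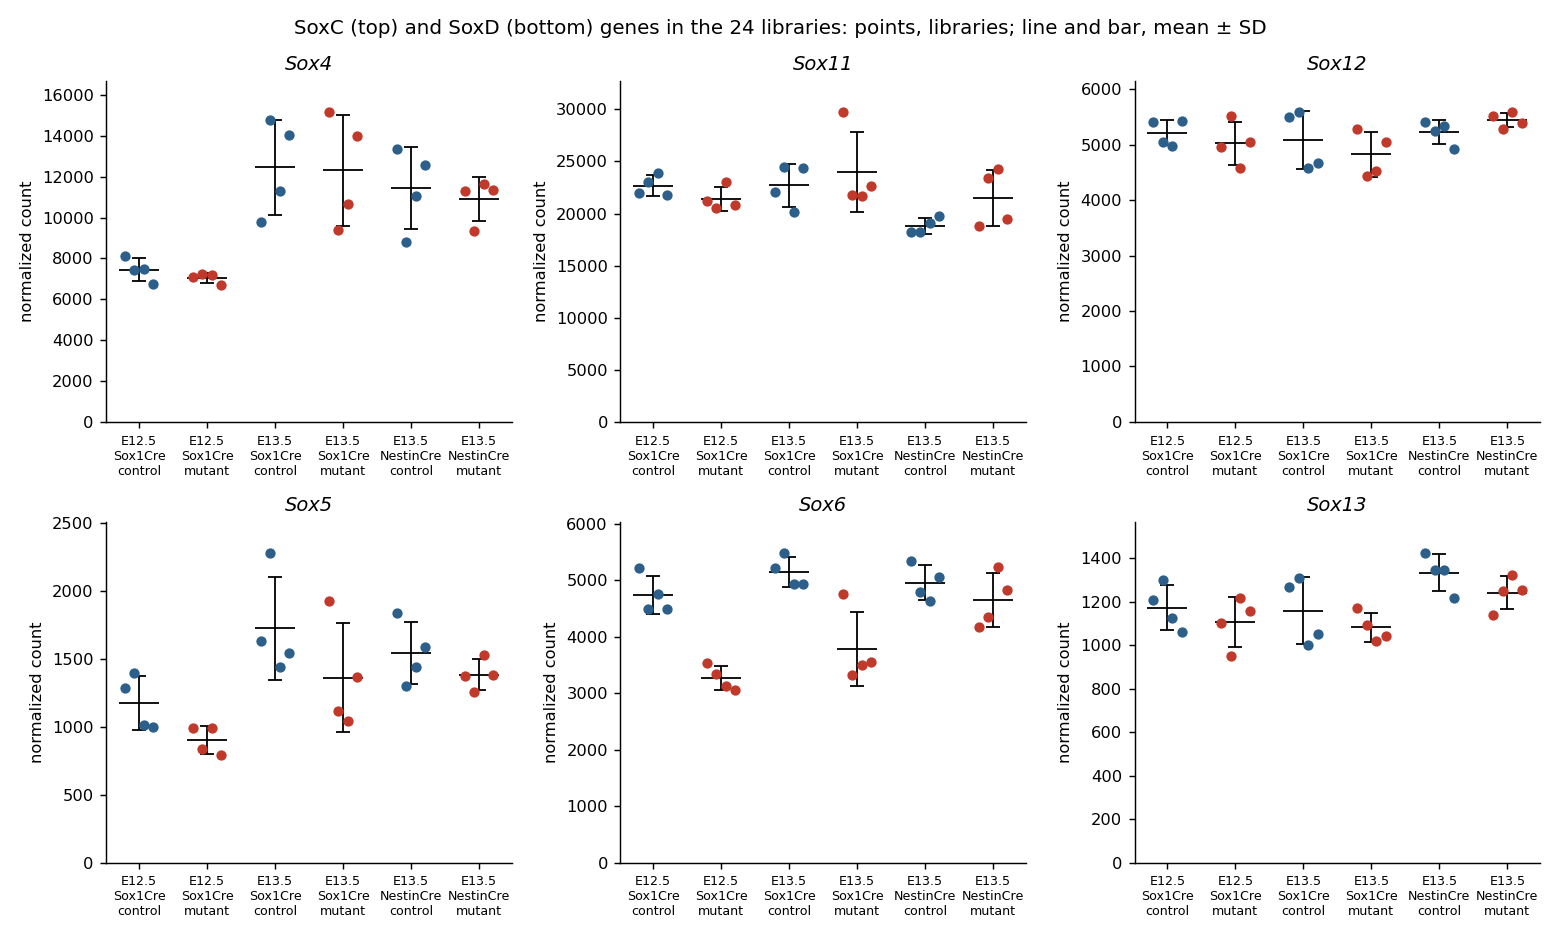
Normalized count (y axis, from 0) of the SoxC genes (top) and SoxD genes (bottom) in the 6 groups (x axis). Points are libraries (blue, controls; red, mutants), and lines with bars are the mean ± SD of 4. Sox4 and Sox5 are higher at E13.5 than at E12.5 in the Sox1Cre line, Sox6 is lower in Sox1Cre mutants than in their controls, and Sox12 stays between 4434 and 5588 in all libraries.

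The labels were first checked on Sox9, the deleted gene. Sox9 was at 3363 ± 376 normalized counts (SD, n = 4) in E13.5 Sox1Cre mutants and 5578 ± 306 in their controls, at 2260 ± 508 and 4522 ± 503 at E12.5, and at 3134 ± 162 and 5152 ± 465 in the NestinCre line. It fell in the 3 comparisons (limma, Benjamini-Hochberg adjusted p = 0.00210, 6.28e-05 and 0.0297), and in each the 4 mutants lay below the 4 controls. The call in the NestinCre line was lost with log2 Xist as a covariate and in 7 of the 8 fits that left out a single library, all but that without A23. The libraries of this line were at 2997 to 3369 in mutants and at 4586 to 5636 in controls. Over all genes, 2 were called with log2 Xist and 2 to 7 with a library left out, against 11 in the main fit. Part of the Sox9 transcript remains after recombination, so this value is not a share of cells. The markers of the tissue were present in every group, since Lhx2, a regulator of dorsal forebrain identity, had group means from 11013 to 18651 and no pallial progenitor gene was at 0 in a whole group.

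Loss of Sox9 was first examined in the Sox1Cre line, where Sox6 was the only member that passed the test in the main fit. Sox5 also had lower means, and the ratio of Sox6 to Sox5 did not differ beyond the spread between libraries. At E13.5, 1 of the 6 genes passed the test, against 0.924% of the 16454 genes tested. Sox6 was at 4759, 3312, 3503 and 3556 normalized counts in the mutants A1 to A4 and at 5222, 5484, 4929 and 4928 in the controls. All 4 mutants lay below all 4 controls, with A1 nearest to them. Sox6 fell by 27.1%, a log2 change of -0.46 (SE 0.09; limma, Benjamini-Hochberg adjusted p = 0.0138; exact permutation test over 35 divisions, two-sided p = 0.0286, the smallest that 4 against 4 allow). Without A1 the log2 change was -0.57 (limma, adjusted p = 4.085e-04).

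The call at E13.5 depended on the fit. With the 8 libraries of the comparison alone the adjusted p was 0.246 (limma), the highest of the 11 alternatives, of which the lowest was 2.867e-04. With log2 Xist as a covariate the change was -0.40 (limma, adjusted p = 0.0566), and without library A2, A3, A4 or A6 the adjusted p was between 0.0523 and 0.0579. The controls of this comparison were all low in Xist. Among the mutants, the low-Xist libraries A1 and A4 were at 4759 and 3556 and the high-Xist libraries A2 and A3 at 3312 and 3503. The part of Xist, and of the sex it marks, in the difference was not tested beyond this covariate.

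At E12.5 the same gene was lower. Of the 6 genes 1 passed, against 0.723% of all genes tested. Sox6 was at 3532, 3337, 3133 and 3049 normalized counts in the mutants A9 to A12 and at 5211, 4489, 4754 and 4484 in the controls A13 to A16. The groups were again apart, the highest mutant at 3532 and the lowest control at 4484. The level fell by 31.1%, a log2 change of -0.54 (SE 0.09; limma, Benjamini-Hochberg adjusted p = 0.00391; exact permutation p = 0.0286, two-sided). The call held under all 11 alternatives, with adjusted p from 1.136e-05 to 0.00899, and without any single library, with adjusted p from 0.00746 to 0.0249 (limma, edgeR and DESeq2 for the alternatives). Here the controls were all high in Xist, the opposite of E13.5.

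The E12.5 and E13.5 comparisons share no library. The change of Sox6 differed between the ages by a log2 value of 0.08 (95% interval -0.19 to 0.35; limma, adjusted p = 0.919). For this difference 0 of the 6 genes passed, and 0% of all genes did, with 1217 genes at an unadjusted p under 0.05 in limma, 20 called by DESeq2 and 0 by edgeR. None of the 6 had an unadjusted p under 0.05 for it. In bulk RNA, fewer cells that carry Sox6 and less Sox6 RNA per cell cannot be told apart.

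Sox5, the closest partner of Sox6 in cartilage, was also lower on average in Sox1Cre mutants but did not pass the test over all genes. At E13.5 it was at 1930, 1115, 1041 and 1367 normalized counts in the mutants and at 1636, 2284, 1439 and 1549 in the controls. A1 lay among the controls and the other 3 mutants below all of them. The log2 change was -0.36 (95% interval -0.71 to -0.01; limma, unadjusted p = 0.0445, adjusted p = 0.408), and -0.54 without A1 (adjusted p = 0.0546). At E12.5 the mutants were at 991, 840, 990 and 794 and the controls at 1287, 1400, 1018 and 999, so the 4 mutants lay below the controls by a narrow margin. The log2 change was -0.37 (limma, adjusted p = 0.343; exact permutation p = 0.0286, two-sided).

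Sox13 is the SoxD gene least studied in the brain. Sox13 was at 1081 ± 67.5 normalized counts in E13.5 Sox1Cre mutants and 1157 ± 154 in controls (SD, n = 4), and at 1108 ± 114 and 1172 ± 103 at E12.5. The groups overlapped at both ages. The log2 changes were -0.09 and -0.08 (limma, adjusted p = 0.765 and 0.726).

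The 3 SoxC genes did not pass the test in Sox1Cre mutants. Sox4 was at 15160, 9376, 10666 and 14011 normalized counts in E13.5 mutants and at 9774, 14752, 11279 and 14013 in controls. The spread within each group was larger than the difference between them, a log2 value of -0.03 (95% interval -0.33 to 0.28; limma, adjusted p = 0.976). At E12.5 Sox4 lay between 6685 and 7252 in mutants and between 6735 and 8101 in controls, a log2 change of -0.08 (limma, adjusted p = 0.860).

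Sox11 was at 29742, 21807, 21731 and 22621 normalized counts in E13.5 Sox1Cre mutants and at 22029, 24456, 20131 and 24329 in controls. A1 stood above every other library, and the other 3 mutants lay within the range of the controls. The log2 change was 0.07 (95% interval -0.12 to 0.26; limma, adjusted p = 0.847), and it was -0.04 without A1. At E12.5 it was -0.08 (adjusted p = 0.735). Sox12, the SoxC gene with the weakest activity, was at 4825 ± 407 and 5084 ± 529 at E13.5 and at 5029 ± 387 and 5216 ± 229 at E12.5 in mutants and controls, with log2 changes of -0.07 and -0.05 (limma, adjusted p = 0.742 and 0.773).

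Deletion with NestinCre was compared next, since this Cre acts later than Sox1Cre. The measured change of Sox9 RNA at E13.5 differed between the lines by a log2 value of -0.02 (95% interval -0.37 to 0.33; limma, adjusted p = 0.996). Of the 6 genes 0 passed, against 0.0669% of all genes tested. None of the 6 had an unadjusted p under 0.05 in limma, and neither edgeR nor DESeq2 called one. Sox6 was at 4176, 4345, 5233 and 4823 normalized counts in the mutants A17 to A20 and at 5336, 4792, 4629 and 5050 in the controls A21 to A24. The groups overlapped, with A17 and A18 below all controls. The log2 change was -0.10 (95% interval -0.29 to 0.09; limma, adjusted p = 0.995).

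Sox5 was at 1377, 1256, 1530 and 1382 in NestinCre mutants and at 1838, 1300, 1444 and 1589 in controls, a log2 change of -0.15 (limma, adjusted p = 1.0). Sox11 was at 18852, 23397, 24233 and 19499 in mutants and at 18218, 18185, 19093 and 19760 in controls. The mutants A18 and A19 lay above all controls and the other pair within them. The log2 change was 0.18 (95% interval -0.01 to 0.38; limma, unadjusted p = 0.0601, adjusted p = 0.796). Sox4, Sox12 and Sox13 had log2 changes of -0.06, 0.06 and -0.10.

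Whether the Sox1Cre change differed from the NestinCre change was tested directly at E13.5. Of the 6 genes 0 passed, against 0.0425% of all genes tested, and neither edgeR nor DESeq2 called one. Sox6 differed by a log2 value of -0.36 (95% interval -0.63 to -0.09; limma, unadjusted p = 0.0110, adjusted p = 0.364). Without A1 the difference was -0.48 (limma, adjusted p = 0.0262), and with array weights, which count variable libraries less, it was -0.46 (adjusted p = 0.0230). These were the only fits that called it. The adjusted p of the other alternatives was between 0.295 and 0.564, and without any other single library between 0.272 and 0.629. For Sox5 the difference was -0.21 (limma, adjusted p = 0.924).

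**Figure D2:**
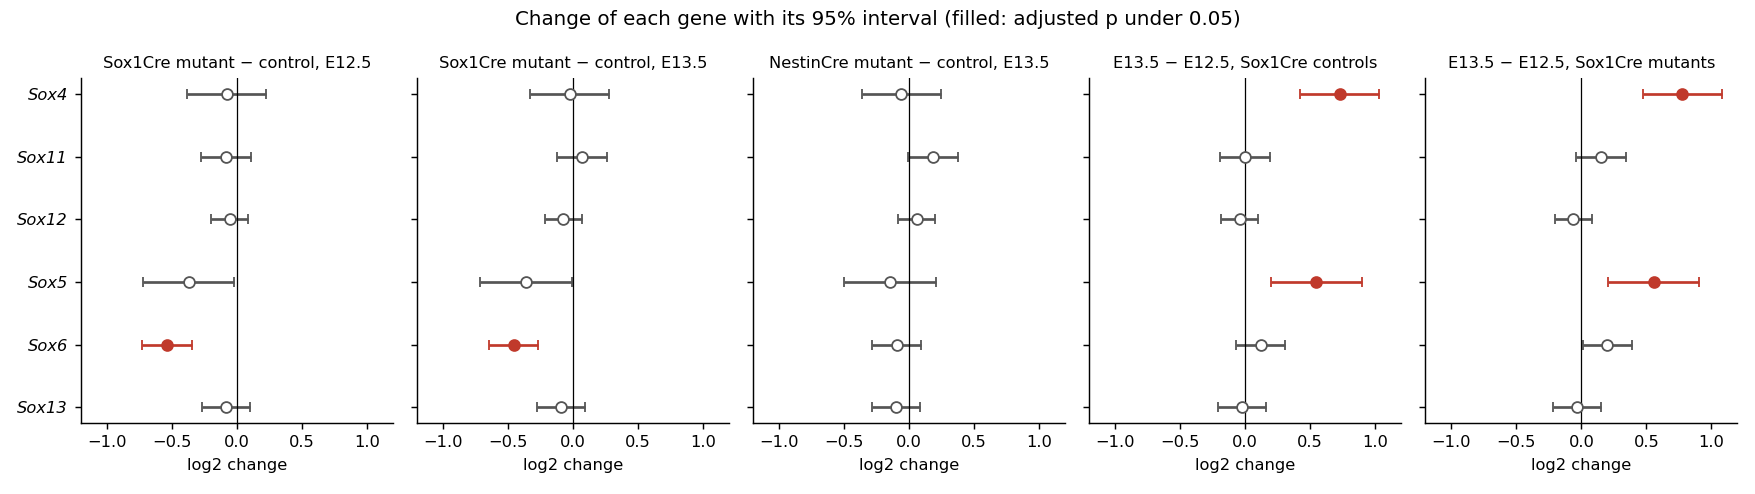
Log2 change (x axis) of each gene (y axis) in 5 comparisons, with 95% intervals from limma on 24 libraries. Filled red points passed an adjusted p of 0.05. Sox6 is the only filled point in the Sox1Cre mutants, at -0.54 (E12.5) and -0.46 (E13.5), and Sox4 and Sox5 are the filled points between ages.

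Levels also differed between the ages, with Sox4 of the SoxC genes and Sox5 of the SoxD genes higher at E13.5 in the main fit. Age and litter cannot be told apart in either genotype. In Sox1Cre controls 2 of the 6 genes passed, against 11.5% of all genes tested, and in Sox1Cre mutants 2 of 6, against 25.9%. These shares of members rest on few genes and on an age step in which many genes moved. Sox4 was at 8101, 7441, 7498 and 6735 normalized counts in the E12.5 controls A13 to A16, and the E13.5 controls given above lay between 9774 and 14752. The ages did not overlap. Sox4 rose 1.65-fold, a log2 change of 0.73 (SE 0.15; limma, Benjamini-Hochberg adjusted p = 0.00446; exact permutation p = 0.0286, two-sided).

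Sox4 rose 1.71-fold in the mutants, a log2 change of 0.78 (SE 0.15; limma, adjusted p = 8.967e-04). With log2 Xist as a covariate the change was 0.54 in the controls (limma, adjusted p = 0.157, against 3.266e-05 to 0.0105 for the other 10 alternatives) and 0.78 in the mutants (adjusted p = 6.820e-04), where Xist was balanced between ages. Over the whole series the 8 libraries of E12.5 lay between 6685 and 8101, and all 16 libraries of E13.5, NestinCre included, lay above them. With log2 Xist as a covariate 0 of all genes were called between ages in the controls, in place of 1892, and 4281 in the mutants, in place of 4263. Every age call in the controls below, of single genes and of lists, was lost in that fit.

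Sox5 was at 1287, 1400, 1018 and 999 in E12.5 controls and at 1439 to 2284 at E13.5, again with no overlap. The rise was 1.46-fold in controls (log2 0.55; limma, adjusted p = 0.0402) and 1.47-fold in mutants (log2 0.56; adjusted p = 0.0192). With log2 Xist as a covariate it was 0.34 in controls (limma, adjusted p = 0.436) and 0.56 in mutants (adjusted p = 0.0148). Without A1 the change in mutants was 0.37 (limma, adjusted p = 0.0789) and without A12 it was 0.50 (adjusted p = 0.0661), and neither passed. Nor did it pass in mutants with array weights (limma, adjusted p = 0.148) or with the comparison's libraries alone (adjusted p = 0.0797). In controls it did not pass without A6, A8, A15 or A16 (limma, adjusted p = 0.0631 to 0.156), with no filter (adjusted p = 0.0654) or with the comparison's libraries alone (adjusted p = 0.0574).

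Sox11 stayed level. Its log2 change between ages was 0.00 in controls (95% interval -0.19 to 0.19; limma, adjusted p = 0.999) and 0.15 in mutants (interval -0.04 to 0.35; adjusted p = 0.240), and 0.04 in mutants without A1 (adjusted p = 0.728). Sox12 and Sox13 had changes between -0.06 and -0.02 in both genotypes (-0.10 and -0.07 in mutants without A1), and Sox6 of 0.12 and 0.20 (limma, adjusted p = 0.426 and 0.111), the latter 0.0851 without A1. The Sox4 to Sox11 ratio within a library was higher at E13.5 than at E12.5 in controls by a log2 value of 0.73, with all 4 libraries above all 4 (exact permutation p = 0.0286, two-sided, and 0.229 after Benjamini-Hochberg adjustment over 8 ratio comparisons). A single ratio at the smallest p that 4 against 4 allow cannot pass after adjustment over 8 comparisons, so the adjusted value decides nothing here.

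The Sox6 to Sox5 ratio was lower at E13.5 in controls by 0.43 on the log2 scale (exact permutation p = 0.0571, adjusted 0.229). Between mutants and controls this ratio differed by -0.10 in the Sox1Cre line at E13.5, by -0.17 at E12.5 and by 0.05 in the NestinCre line (exact permutation p = 0.571, 0.257 and 0.543). The fall of Sox6 relative to Sox5 in mutants was therefore not larger than the spread between libraries.

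By group mean, the order of Sox6 ran from E12.5 Sox1Cre mutants (3263 ± 217; SD, n = 4) and E13.5 Sox1Cre mutants (3783 ± 659), whose gap was within the larger SD, over NestinCre mutants (4644 ± 479) to the 3 control groups (4735 ± 342, 4952 ± 309 and 5141 ± 267), whose neighbours did not differ beyond their SD. The order of Sox4 had a single step beyond the SD, between E12.5 controls (7444 ± 559) and NestinCre mutants (10905 ± 1062). Sox11 had its lowest group in NestinCre controls (18814 ± 758), below E12.5 Sox1Cre mutants (21401 ± 1138) with no overlap.

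Genes whose levels ran with those of the members were listed by Pearson's r of log2 values over the 24 libraries, among genes with a mean of at least 100, as a description. The libraries share age and genotype groups, and r was therefore also taken after subtracting group means. Sox4 was most like Mllt11 (r = 0.989), Dubr (0.985) and Zbtb18 (0.985), and within groups most like Hecw1 (0.978), Mllt11 (0.974) and Kif3c (0.968). Sox5 was most like Gapvd1 (0.951), Dusp16 (0.920) and Ncan (0.918), and within groups like Mgat5 (0.906), Lhfpl4 (0.888) and Gapvd1 (0.887).

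Sox6 was most like Gclc (0.896), S1pr1 (0.886) and Litaf (0.885), and within groups like Ttl (0.865), Nr2c2 (0.859) and Gnl3l (0.850). Sox11 went with Mex3c (0.854), Spin1 and Ap1ar (both 0.826), and within groups with Zfp760 (0.901) and Phip (0.873). Sox12 went with Garem2 (0.859), Csnk2b (0.858) and Chtf18 (0.838), and within groups with Prc1 (0.876), Ube2s (0.875) and Trabd (0.863). Sox13 went with Foxp4 (0.815), Elac2 (0.774) and Sept9 (0.773), and within groups with Foxp4 (0.855), Med1 (0.769) and Raph1 (0.756).

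Among the members, Sox4 and Sox5 had r = 0.831 over the 24 libraries and 0.733 within groups, and Sox5 and Sox6 had 0.778 and 0.722. Sox4 and Sox11 had 0.159 and 0.439. The r of Sox6 with Sox9 was 0.800 over all libraries and 0.302 after group means were subtracted.

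The other Sox genes were measured beside them. Of 14 others 10 passed the filter on low values. In the mutant comparisons Sox9 was the single one that passed the test, with the median of the 10 at a log2 change of -0.05 in Sox1Cre mutants at E13.5, -0.0030 at E12.5 and 0.01 in NestinCre mutants, against medians of -0.0046, 0.0020 and -0.0021 over all genes tested. Without A1 the E13.5 median of the 10 was 0.05, with 6 genes above 0 in place of 4. Sox2, which keeps neural progenitors undifferentiated, had log2 changes of -0.0040, -0.03 and 0.05 in these comparisons. Sox3, its close relative, had changes of -0.12, -0.28 and -0.02, and none of either gene passed the test. A1 was the highest E13.5 Sox1Cre mutant for both. It was at 5453 for Sox2 and 4539 for Sox3, against 4098 to 4364 and 2996 to 3474 in the other mutants. Sox1, the gene that carries the Cre in the Sox1Cre line, had changes of 0.39, 0.03 and 0.53. At E13.5 it was at 2054 in A1 and at 1293 to 1381 in the other Sox1Cre mutants. Sox21, a SoxB repressor, had changes of 0.35, 0.49 and 0.38, none past the test. Single libraries stood apart for Sox21, with A1 at 1296 against 421 to 695 in the other E13.5 Sox1Cre mutants. At E12.5 the control A14 was at 875 against 132 to 276 in the other controls. In NestinCre mutants A18 was at 1477 against 554 to 850 in the others. Sox8, a relative of Sox9, was at 137 against 46.8 in E13.5 Sox1Cre mutants and controls and at 124 against 42.9 in the NestinCre line (limma, adjusted p = 0.215 and 0.426), and at 9.55 against 8.72 at E12.5. In the NestinCre line all 4 mutants lay above all 4 controls for Sox8 and for Sox1. The unadjusted p was 0.00289 and 0.0125 (limma), and the exact permutation p was 0.0286 for both (two-sided). In the Sox1Cre line at E13.5, 2 of 4 mutants lay above all controls for each gene.

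The vascular Sox7, Sox17 and Sox18 had changes between -0.45 and 0.04, with no adjusted p under 0.573 (limma). The lowest was that of Sox7 in E13.5 Sox1Cre mutants, at 109 in A1 and at 243 to 358 in the others. Sox7 was at 286 to 335 in the controls of these mutants. Sox30 stayed under 11 normalized counts in every group mean. Sox10, the marker of oligodendrocyte and neural crest cells, was listed at 0 in 4 of the 6 groups and reached 61.1 in A18. Between ages in Sox1Cre controls 1 of these 10 genes was higher and 0 lower, and in mutants 4 were higher and 0 lower, against 11.5% and 25.9% of all genes called in either direction.

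Genes that SoxC proteins are known to activate in young neurons, Tubb3, Map2, Dcx, Prox1 and Tead2, did not pass in any mutant comparison, in limma, edgeR or DESeq2. Their median log2 change was -0.09 in Sox1Cre mutants at both ages and 0.05 in NestinCre mutants. Without A1 the E13.5 median was -0.14, with 5 of 5 below 0 in place of 3. The smallest p among them was that of Prox1, a factor of dentate granule neurons, at E12.5, with a log2 change of -0.46 (limma, unadjusted p = 0.0140, adjusted p = 0.238). Between ages 3 of the 5 rose in controls and the same number in mutants, among them Dcx, a tubulin-binding protein of migrating neurons, by 1.10 and 1.27 (limma, adjusted p = 0.00984 and 0.00146), and Map2, a dendritic tubulin-binding protein, by 0.29 and 0.28.

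The list of 15 neuronal differentiation genes followed age in the same direction as Sox4. In controls 12 of 15 rose and 0 fell between ages, with a median log2 change of 0.86, and in mutants 11 rose and 0 fell, with a median of 1.08, against medians of -0.0016 and -0.0079 over all genes tested. Mapt, which encodes the axonal protein tau, rose by 2.66 and 2.95 on the log2 scale, and Neurod6, a factor of young projection neurons, by 2.97 and 3.62 (limma, adjusted p = 0.00261 and 1.885e-04). Over libraries, the summed level of the list had r = 0.983 with Sox4 and 0.960 after group means were subtracted. For Sox5 these were 0.806 and 0.731, for Sox6 0.466 and 0.578, and for Sox11 0.123 and 0.368. For Sox12 they were 0.0924 and 0.296, and for Sox13 0.196 and 0.126. The share of neurons in a library was not measured, and its part in the Sox4 and Sox5 levels was not tested.

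**Figure D3:**
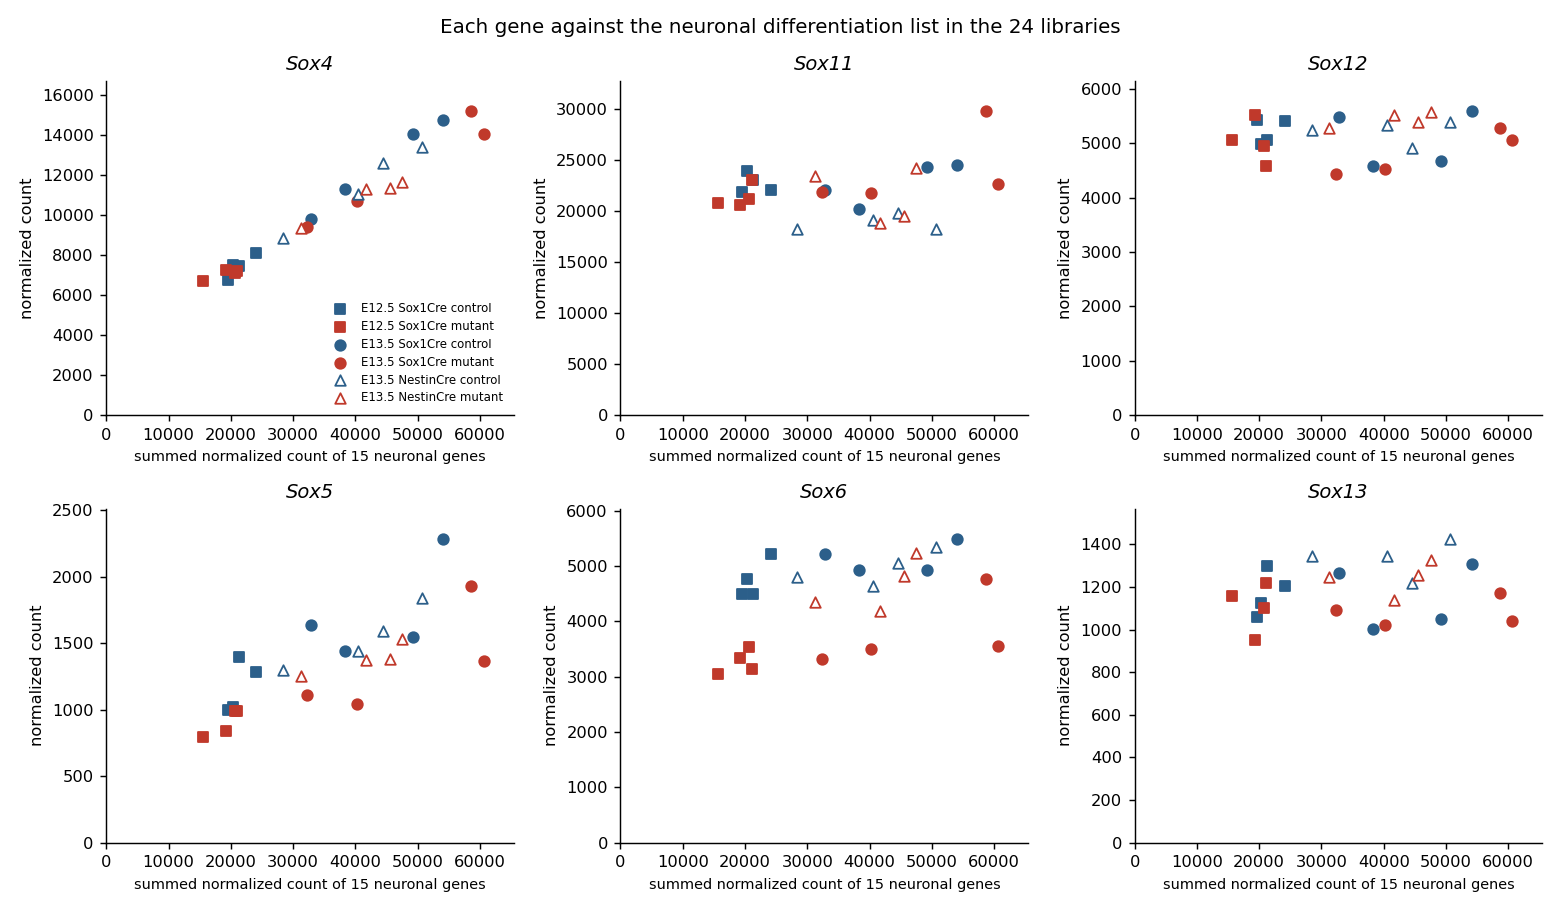
Normalized count of each gene (y axis) against the summed normalized count of the 15 neuronal differentiation genes (x axis), 1 point per library; squares E12.5 Sox1Cre, circles E13.5 Sox1Cre, open triangles E13.5 NestinCre, blue controls and red mutants. Sox4 rises with the neuronal sum over all groups (r = 0.983), while r is 0.123 for Sox11 and 0.0924 for Sox12. Sox6 is lower in the Sox1Cre mutants of each age than in their controls, although the sums of the groups only partly overlap.

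In the Sox1Cre mutants the neuronal list had 1 gene lower and 0 higher at E13.5, Nhlh1, a helix-loop-helix factor of newly born neurons, at 1736 against 2770 (log2 change -0.69; limma, adjusted p = 0.0138). The median of the 15 was 0.22 there, 0.01 at E12.5 and -0.01 in NestinCre mutants, and 0 passed in the last comparisons. The Nhlh1 call was lost with log2 Xist as a covariate, with the 8 libraries of the comparison alone, and without A2, A3 or A6. Of 10 proneural and intermediate progenitor genes, 1 was higher at E12.5 in Sox1Cre mutants, the proneural factor Neurod4, at 145 against 46.5 (log2 change 1.71; limma, adjusted p = 0.0417), and 0 passed in the others in limma and edgeR, while DESeq2 called 1 at E13.5. The Neurod4 call was not made by edgeR, with log2 Xist as a covariate, with the libraries of the comparison alone or in 6 of the 8 fits that left out a single library. Neurog2, the main proneural factor of the dorsal forebrain, had a log2 change of -0.31 at E12.5 (adjusted p = 0.257). Of 7 deep-layer neuron genes, the class with which Sox5 is associated, 0 passed in the mutant comparisons, and 2 rose between ages in controls and in mutants, Tbr1, a determinant of deep-layer fate (log2 0.50 and 0.39), and Zfpm2, a zinc finger cofactor.

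The collagen and matrix genes that SOX9, SOX5 and SOX6 activate in cartilage are the best known joint targets of SoxD proteins. Of 9 genes 8 were tested. At E13.5 in Sox1Cre mutants 2 fell and 0 rose, with a median log2 change of -0.38. Col2a1, the main cartilage collagen, was at 3690 against 5870 (log2 change -0.68; limma, adjusted p = 0.0240) and Col9a3, a chain of collagen IX, at 77.3 against 350 (-2.10; adjusted p = 0.0296). Both were called by edgeR and DESeq2, and 0 with log2 Xist as a covariate, with the libraries of the comparison alone, or without A7 or A8. At E12.5 0 passed in limma and edgeR, 1 passed in DESeq2 and 1 with the libraries of the comparison alone, and the median was -0.25, with the smallest p for Col9a2 (log2 change -0.79; limma, adjusted p = 0.0708). In NestinCre mutants 0 passed and the median was -0.28, with Col2a1 at 3553 against 4900 (limma, adjusted p = 0.480). SOX9 is itself the main activator of these genes, so its part and that of Sox6 cannot be told apart.

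Of 17 glial progenitor genes 16 were tested. In Sox1Cre mutants 3 fell at E13.5 and 0 rose, with a median of -0.05. Among them were Vim, an intermediate filament of radial glia (28286 against 33932; limma, adjusted p = 0.0289), and Hopx, a homeodomain cofactor (310 against 472; adjusted p = 0.0451). Hopx also fell at E12.5 (185 against 288; adjusted p = 0.0406), the single one there in limma and edgeR, where DESeq2 called 2, and in NestinCre mutants 0 passed. With log2 Xist as a covariate, or with the libraries of the comparison alone, 0 of the list passed in either Sox1Cre comparison. Leaving out a single library gave 0 to 2 calls at each age, with 0 at E13.5 without A3 or A6 and 0 at E12.5 in 6 of 8 fits. Between ages 5 rose and 1 fell in controls, and 8 rose and 3 fell in mutants, with Nfix, which promotes glial fate, up by 1.17 and 1.74. Of 8 oligodendrocyte lineage genes 6 were tested and 0 passed in any of the 7 comparisons in limma, edgeR or DESeq2, with at most 1 at an unadjusted p under 0.05 in each. In each group 2 to 4 of the 8 genes had a mean under 10, so the list says little of this lineage. Pdgfra, a growth factor receptor, made up the largest part of its summed level. That sum was between 1767 and 3709 in E13.5 Sox1Cre mutants and between 2712 and 3157 in controls. The lowest of these mutants was A1, and the others lay between 2852 and 3709.

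Markers of other cells in the dissection were read beside the fall of Sox6. The 7 pallial progenitor genes had 0 calls and a median log2 change of 0.11 in Sox1Cre mutants at E13.5, and -0.11 at E12.5 with all 7 below 0. Endothelial genes (6 tested, Kdr the most abundant) had medians of -0.35 and -0.08, meningeal genes (8 tested, Col3a1 the most abundant) of -0.27 and -0.05, and choroid plexus genes (6 tested, Ttr the most abundant) of -0.02 and 0.46. Cortical hem genes (5 tested, Rspo2 the most abundant) had medians of -0.22 and 0.15, and pericyte genes (4 tested, Pdgfrb) of 0.01 and 0.33. In these lists 0 genes passed in either comparison, with at most 1 of a list at an unadjusted p under 0.05. At E13.5 all 6 endothelial and all 8 meningeal genes had values below 0, as did all 6 microglial genes, and at E12.5 these were 5 of 6, 6 of 8 and 2 of 6. Of the 5 hem genes 4 were below 0 at E13.5 and 0 at E12.5.

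Much of this rested on library A1, as medians computed without it show, a setting chosen after seeing the data. Without A1 the E13.5 median was -0.08 for endothelial genes (4 of 6 below 0), -0.04 for meningeal genes (6 of 8), 0.13 for microglial genes (2 of 6), 0.07 for hem genes (0 of 5) and 0.62 for choroid plexus genes (0 of 6). For pallial progenitor genes it was 0.04, for pericyte genes 0.21 and for erythroid genes 0.13. Sox6 itself was lower without A1, at a log2 change of -0.57. Of the other lists, the cartilage genes had a median of -0.23 without A1, the glial progenitor genes of 0.02, the neuronal genes of 0.12 and the proneural genes of -0.11.

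Microglial genes (6 tested, Csf1r) had medians of -0.11 and 0.10 and erythroid genes (9 tested, Hbb-y) of -0.02 and 0.06, with 0 called. Of the 6 Cajal-Retzius genes, Reln being the most abundant, Ebf3 fell at E13.5 (738 against 925; limma, adjusted p = 0.0352) and 0 passed at E12.5. Of 9 ventral telencephalon and interneuron genes, cells in which Sox6 is also known to act, 4 passed the filter and 0 the test. Their summed level was between 47.5 and 79.5 in E13.5 Sox1Cre mutants and between 23.1 and 117 in controls. The part of these cell types in the level of Sox6 was not tested.

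Between ages, erythroid genes passed the test with lower values for 6 of 9 in controls and 5 of 9 in mutants, where 1 rose, with medians of -0.97 and -1.04, beside the rise of Sox4 and Sox5. Of 5 cortical hem genes 2 fell in controls and 3 in mutants, with medians of -0.65 and -1.09. Of 7 pallial progenitor genes 1 rose and 1 fell in controls, and 6 rose and 1 fell in mutants, with medians of 0.20 and 0.41. Of 8 meningeal genes 1 rose in controls, and 1 rose and 4 fell in mutants, and of 6 Cajal-Retzius genes 2 rose in controls, and 2 rose and 3 fell in mutants. Of 4 pericyte genes 2 rose in controls and 1 in mutants, of 6 choroid plexus genes 0 and 1, and in the endothelial, microglial and ventral lists 0 passed in limma. The part of these cells in the age difference was not tested.

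**Figure D4:**
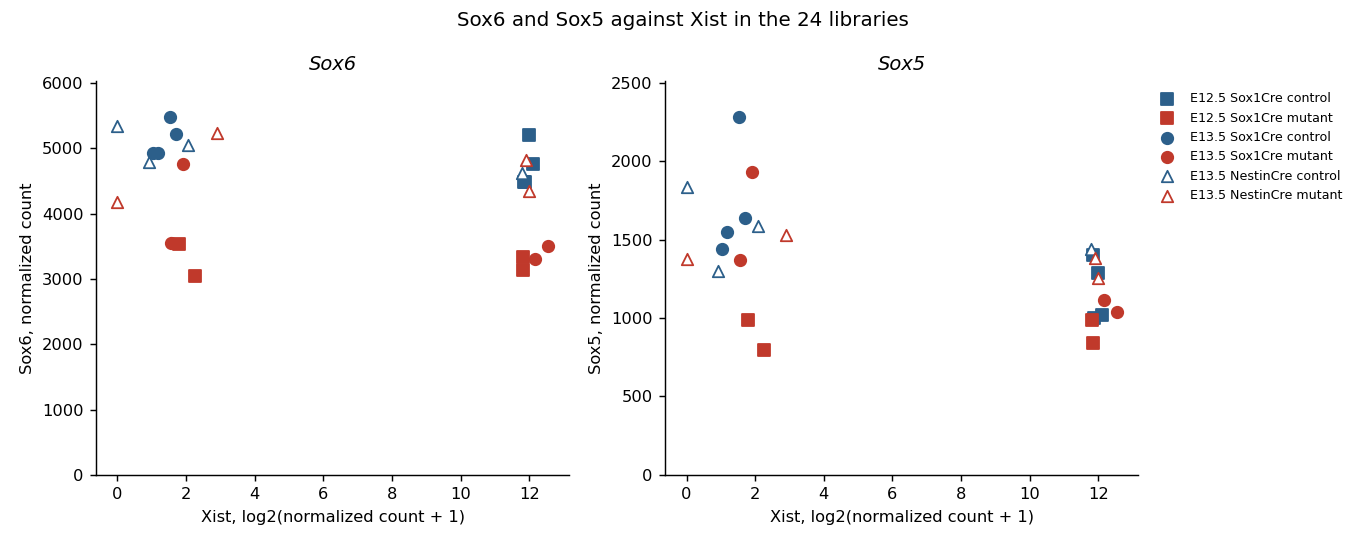
Normalized count of Sox6 (left) and Sox5 (right), y axes from 0, against log2(Xist + 1) on the x axis, 1 point per library; squares E12.5 Sox1Cre, circles E13.5 Sox1Cre, open triangles E13.5 NestinCre, blue controls and red mutants. For Sox6 the 4 low-Xist Sox1Cre mutants lie at 3049 to 4759 and the 4 high-Xist ones at 3133 to 3503, while their controls are all at low Xist at E13.5 and all at high Xist at E12.5.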

How the data were processed

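RNA of dissected archicortex was sequenced by the authors with KAPA mRNA HyperPrep libraries on an Illumina HiSeq instrument. Per the labels, reads were trimmed with Trimmomatic 0.36, aligned to GRCm38 with STAR 2.5.2a and counted with RSEM 1.2.31. The deposited signal is the gene count divided by 1 size factor per library (DESeq2, by the authors), here called the normalized count. In each library 100.0% of values were whole multiples of 1 read (within 0.01), so whole reads were recovered for depth and for the count models.

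GENCODE M21 named 51633 of 51912 gene IDs. A gene entered the tests when 4 or more libraries reached 10 (16454 genes). The model of limma 3.58.1 in R 4.3.3 took log2 of the value plus 1 and had a mean for each of the 6 groups (18 residual degrees of freedom, empirical Bayes with trend), with two-sided p-values, Benjamini-Hochberg adjustment over all genes tested and a threshold of 0.05. Fold changes are on this log2 scale. Ratios within a library were compared by exact permutation tests. The 36 pairs of libraries within groups all differed by more than counting error (chi-square per degree of freedom from 8.74 to 84.3). The fits were tested on simulated data, and no result of that step is used here.

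The 6 genes, the gene lists and the tests were chosen with earlier results of these data known, and the lists give no independent support. Named beside the members are the other Sox genes past the filter, from each list genes that passed the test (up to 4) or those with the smallest p, the most abundant gene of each marker list, and the 3 genes most like each member. Some genes that this rule names are not reported here. Alternatives were pseudocounts of 0.5 and 5, other filters (none, mean of at least 100), the libraries of 1 comparison, quantile normalization, robust eBayes, array weights, log2 Xist as covariate, edgeR 4.0.16 and DESeq2 1.42.0 on recovered reads, and leaving out each library. Protein sequences were not used here.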

Additional observations from a re-analysis of the deposited data

Results flagged for a closer look

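A single library stood far from the other 3 of its group for 3 of the 36 combinations of gene and group examined, by Dixon's ratio of the gap to the range against its 95% critical value, where chance gives about 1 in 20. Sox11 was highest in A1 among the E13.5 Sox1Cre mutants, at 29742 normalized counts with a ratio of 0.889. Sox6 was also highest in A1, at 4759 with a ratio of 0.831. Sox4 was lowest in A18 among the NestinCre mutants, at 9329 with a ratio of 0.854. A1 had the lowest sum of its group for 7 of 10 marker lists and A18 the highest ventral telencephalon sum of all libraries, and the part of this in the Sox levels was not tested. Without A1 the Sox6 change at E13.5 was -0.57 in place of -0.46, and without A18 the Sox4 change in NestinCre mutants was 0.01 in place of -0.06.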

How the results depend on the processing

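Over 7 comparisons of 6 genes, 11 alternatives gave 462 values, of which 439 kept their direction and their side of the threshold. Of the rest, 8 lost a call of the main fit, 2 gained a call and 13 changed sign. Most of the 462 values belong to changes not called in the main fit, so the 439 say little of how firm the calls are. At E13.5 in Sox1Cre mutants the number of the 6 genes called was 1 (Sox6), 2 with array weights (Sox5 added), 0 with log2 Xist as covariate and 0 with the 8 libraries of the comparison alone. For the difference between Cre lines it was 0, and 1 (Sox6) with array weights. Between ages it was 2 in controls, 0 with log2 Xist, and 1 (Sox4) with no filter or with the comparison's libraries alone, and 2 in mutants, 1 (Sox4) with array weights or the comparison's libraries alone. Leaving out each library gave 0 to 1, 0 to 1, 1 to 2 and 1 to 3 calls in these 4 sets. Sox6 at E12.5 was called in every fit listed. Over all genes, the alternatives gave 44 to 962 calls at E13.5 in Sox1Cre mutants (152 in the report), 76 to 577 at E12.5 (119), 2 to 37 in NestinCre mutants (11), 5 to 369 between Cre lines (7), 0 to 3244 between ages in controls (1892) and 2133 to 5550 in mutants (4263), the highest with array weights except for DESeq2 in NestinCre mutants. The lowest between ages in controls was with log2 Xist. Leaving out each library gave 90 to 510, 50 to 139, 2 to 7, 5 to 144, 794 to 2629 and 2948 to 4725. The cause was not tested.

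Uncalled log2 changes near 0 changed sign. At E13.5 in Sox1Cre mutants these were Sox4 (0.0727 with log2 Xist, 0.0168 quantile) and Sox11 (-0.0268 with array weights). Between Cre lines they were Sox4 (-0.14) and Sox13 (-0.0111) with array weights. Between the Sox1Cre changes at each age they were Sox4 (-0.13), Sox5 (-0.29) and Sox6 (-0.0386) with array weights, and Sox12 (0.0416) and Sox13 (0.0111) with log2 Xist. Between ages in controls it was Sox11 (0.0036 with DESeq2, 0.0069 with edgeR, 0.06 quantile). Leaving out each library, Sox4 ranged from -0.14 to 0.0961 and Sox11 from -0.0397 to 0.11 at E13.5 in Sox1Cre mutants, and Sox4 from -0.18 to 0.0218 in NestinCre mutants. Between Cre lines Sox4 ranged from -0.0768 to 0.15 and Sox13 from -0.0534 to 0.0751. Between the changes at each age the ranges were -0.0585 to 0.17 (Sox4), -0.0664 to 0.0289 (Sox12), -0.17 to 0.15 (Sox5), -0.0349 to 0.14 (Sox6) and -0.0777 to 0.0562 (Sox13). Between ages in controls they were -0.037 to 0.0566 (Sox11), -0.0892 to 0.0061 (Sox12) and -0.0867 to 0.0418 (Sox13), and in mutants -0.10 to 0.0171 (Sox13). The Sox6 to Sox5 ratio in NestinCre mutants ranged from -0.0016 to 0.11 and the Sox4 to Sox11 ratio at E12.5 from -0.025 to 0.064. No paired analysis was possible because no replicate number is shared between groups in the labels. With 4 libraries a group, exact tests cannot pass below 0.0286, and 3 against 4 not below 0.0571.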
